A study of Rattus norvegicus with 16 samples.

Results

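The lower stretch of glycolysis was examined in newborn rat retina through 9 genes, chosen by name as the enzymes from triose phosphate to lactate: triose phosphate isomerase (Tpi1), glyceraldehyde-3-phosphate dehydrogenase (Gapdh), phosphoglycerate kinase (Pgk1), phosphoglycerate mutase (Pgam1), the enolases Eno1 and Eno2, pyruvate kinase (Pkm), and the lactate dehydrogenase subunits Ldha and Ldhb. All 9 were measured, among 14324 genes in all. The study set Sprague Dawley (SD) rats against Fischer (F344) rats in an oxygen-induced retinopathy model, which asks how the retina of a susceptible and of a resistant strain answers changing oxygen. Treated litters entered an oxygen chamber with their mothers within 12 h of birth and breathed 80% and 21% oxygen in turns of 24 h until post-natal day 5 or day 6, which is called cyclic hyperoxia here. Controls of the same age and strain stayed in room air. The labels name no mutation or transgene in either strain and do not state which oxygen level came just before each sampling day. Since the turns lasted 24 h, day 5 and day 6 fall in different turns. Age and oxygen turn therefore cannot be told apart in the treated groups. Words such as under hyperoxia mean the cyclic exposure, not the oxygen level at sampling. Each of the 8 groups (strain, oxygen, day) holds 2 arrays, each hybridised with RNA pooled from several rats. The design text speaks of 3 rats and 2 litters, in wording that does not settle whether each pool or both pools of a group are meant. P-values therefore describe no more than how these pools vary, and precision is bounded by having 2 arrays a group.

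These enzymes turn triose phosphates into pyruvate with a gain of ATP, and lactate dehydrogenase turns pyruvate into lactate, which returns the NAD+ that the Gapdh step uses. The retina is known for making much lactate even when oxygen is present. When oxygen is low, hypoxia-inducible factors (HIF) are stabilised and bind short DNA elements with the core letters ACGTG or GCGTG, and many glycolysis genes are known targets.

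Values are log2 expression, so that 1 unit is a doubling. Array medians lay between 5.45 and 5.52, and the 2 arrays of a group correlated at 0.987 to 0.996 over the 14324 genes. The pair with the lowest correlation was F344 hyperoxia on day 6, where both enolases were low on replicate 2 alone. That array also had the highest median, 5.52, and the narrowest interquartile range, 2.81, beside 2.98 to 3.19 on the other arrays. The retina label was checked against photoreceptor and neuron genes: Crx lay between 10.55 and 11.02 over the 16 arrays, Sag between 10.68 and 11.89, and Snap25 between 10.23 and 10.89. Other genes of those kinds were dimmer, such as Gnat1 (5.79 to 7.81), Arr3 (5.21 to 5.77) and Rbfox3 (5.55 to 6.30). The lens gene Cryba1 lay between 5.27 and 7.70 and the erythroid gene Hbb between 6.32 and 8.02. Of 5 pigment epithelium genes, Ttr lay between 8.11 and 9.75 and Tyrp1 between 5.93 and 7.44. Rpe65 (3.92 to 5.08), Best1 (3.99 to 4.36) and Mlana (4.57 to 5.05) lay below the array medians. Because whole retina was measured, fewer cells of a type and less RNA per cell cannot be told apart.

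RefSeq promoters (assembly GRCr8, 300 bases from upstream to just past the start site) were found for 8 of the 9 members. They were searched on both strands for ACGTG and GCGTG. Of 33469 promoters of this length, 19.3% hold ACGTG, 29.7% hold GCGTG and 41.6% hold either. Shown are Ldha, which holds the most matches among the members, Tpi1, which had the widest change between days with no match, Gapdh, and Ldhb, whose day 5 means lay on the other side of room air from those of Ldha. Capitals mark each match on either strand.
Ldha, chr1:106507842-106508141, plus strand: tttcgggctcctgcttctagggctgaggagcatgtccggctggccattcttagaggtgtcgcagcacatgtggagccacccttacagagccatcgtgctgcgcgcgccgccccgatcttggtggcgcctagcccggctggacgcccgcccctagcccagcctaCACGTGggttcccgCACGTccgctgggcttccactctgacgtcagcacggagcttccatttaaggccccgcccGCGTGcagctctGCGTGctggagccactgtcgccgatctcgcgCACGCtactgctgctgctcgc
Tpi1, chr4:159305039-159305338, minus strand: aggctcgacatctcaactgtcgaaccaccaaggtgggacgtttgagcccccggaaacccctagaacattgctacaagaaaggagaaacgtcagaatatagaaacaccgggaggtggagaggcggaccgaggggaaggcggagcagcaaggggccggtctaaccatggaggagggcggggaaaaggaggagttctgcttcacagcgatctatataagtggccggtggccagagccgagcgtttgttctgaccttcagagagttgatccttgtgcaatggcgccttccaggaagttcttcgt
Gapdh, chr4:159652418-159652717, minus strand: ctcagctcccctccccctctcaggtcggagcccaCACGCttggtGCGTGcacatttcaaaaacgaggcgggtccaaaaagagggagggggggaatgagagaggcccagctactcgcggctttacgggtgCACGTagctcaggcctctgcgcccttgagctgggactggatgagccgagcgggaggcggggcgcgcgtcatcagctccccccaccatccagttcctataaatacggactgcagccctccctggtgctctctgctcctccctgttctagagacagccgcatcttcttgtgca
Ldhb, chr4:177177359-177177658, minus strand: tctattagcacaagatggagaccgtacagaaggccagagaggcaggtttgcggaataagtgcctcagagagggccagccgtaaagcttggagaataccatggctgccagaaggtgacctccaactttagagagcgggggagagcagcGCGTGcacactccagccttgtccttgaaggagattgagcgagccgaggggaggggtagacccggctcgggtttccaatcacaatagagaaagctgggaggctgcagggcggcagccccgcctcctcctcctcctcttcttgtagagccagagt
The Ldha window holds 6 matches, 3 of each motif, which 0.63% of all promoters reach or pass. A pair of the Ldha matches overlap, since ACGTG on the minus strand begins at -87 and on the plus strand at -86 from the start site. Gapdh holds 3 matches, a number that 8.15% of promoters reach or pass, Pgam1 holds 2, and Eno2 and Ldhb hold 1 each. Eno1 has 2 listed promoters with 1 and 2 matches. Tpi1 and Pkm hold 0. Such a match describes letters in this window and nothing about binding. The Gapdh window, which ends at 159652717, lies inside the annotated minus strand gene, which runs to 159653436. The Pkm window, which starts at 68953385, lies inside its plus strand gene, which starts at 68949731. For these genes no window at the outer end of the gene was searched. On GRCr8 the genes Tpi1 (159301558 to 159305088), Gapdh (159648592 to 159653436), Eno2 (159258371 to 159267220) and Ldhb (177159389 to 177177408) all lie on chromosome 4. Ldha (106508092 to 106517512) and Pgam1 (250673152 to 250680762) lie on chromosome 1, Eno1 on chromosome 5, Pkm on chromosome 8 and Pgk1 on chromosome X.

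On day 5, after cyclic hyperoxia, both arrays of each strain lay below the room air arrays of that strain for 6.56% of all genes. Among the 9 members they did so for 6 (Tpi1, Gapdh, Pgk1, Eno1, Pkm and Ldha). Pgk1 alone passed the test, and Ldhb had higher means after hyperoxia. From day 5 to day 6 under hyperoxia, Tpi1, Pgk1, Pkm and Ldha rose, while none of the members passed the test between the same days in room air. When the change under hyperoxia was tested against that in room air, Pgk1 alone of the 9 passed, over both strains and in F344. On day 6 Ldhb was higher after hyperoxia than in room air, most clearly in SD. Tests were limma fits on all 16 arrays with Benjamini-Hochberg adjustment over all genes of a comparison. Calls were made at an adjusted p under 0.05, and errors after ± are moderated standard errors from 2 arrays a group.

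**Figure D1:**
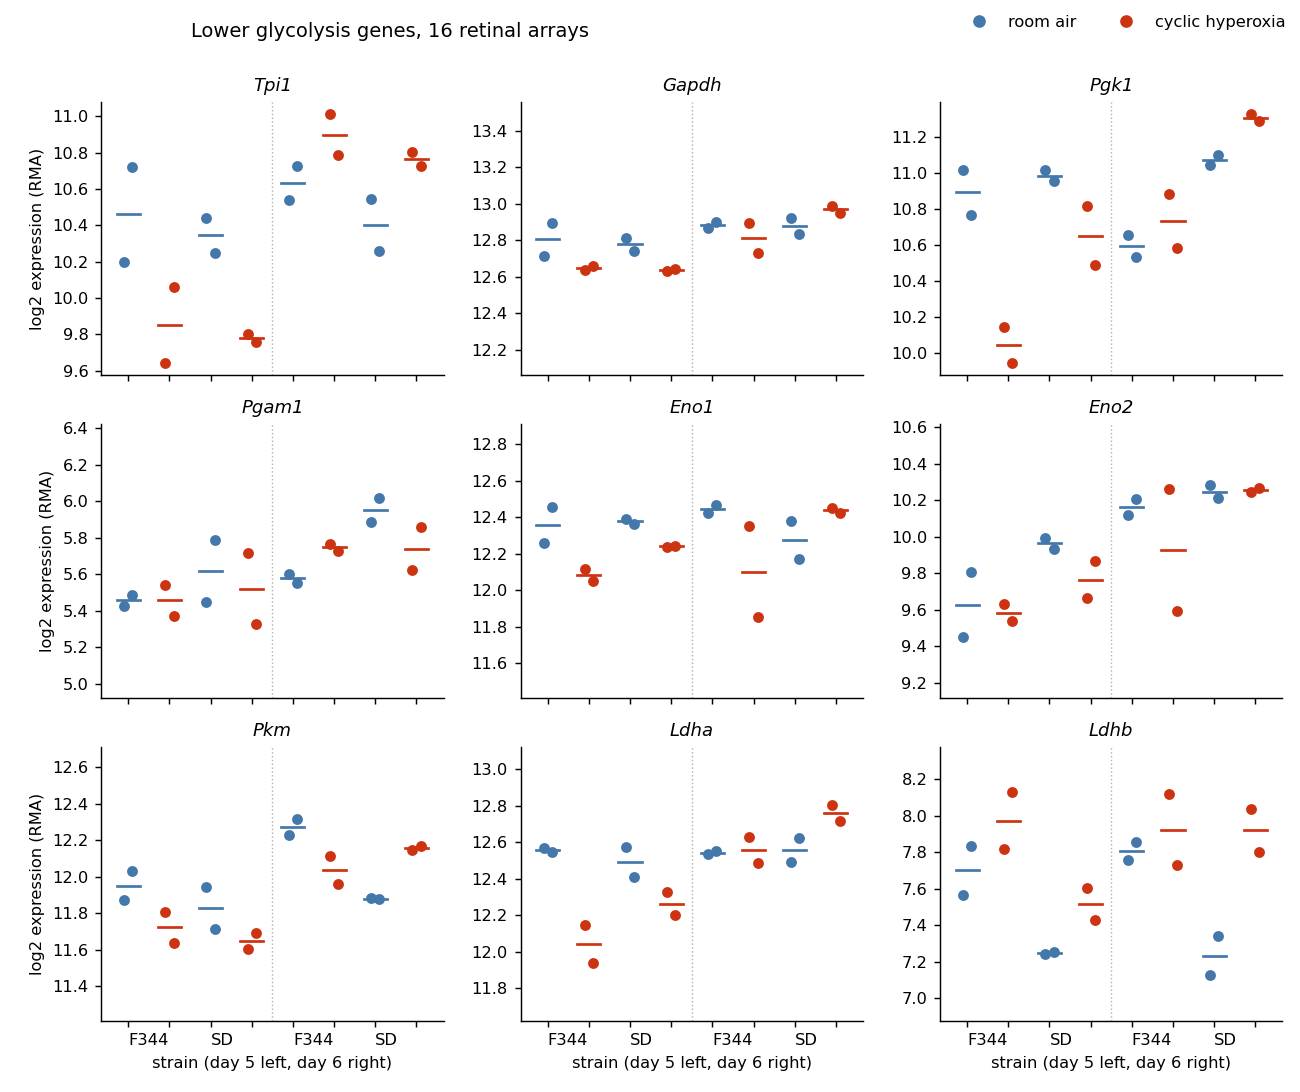
Log2 expression of the 9 members on all 16 arrays (y axis, a scale of its own for each gene), by strain, with day 5 left and day 6 right of the dotted line. Points are single arrays, with room air in blue and cyclic hyperoxia in red, and short lines are group means. On day 5 both hyperoxia groups of Tpi1 lie below all room air arrays of that day, and Ldhb shows the opposite order of means.

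Tpi1 interconverts the triose phosphates that aldolase makes. On day 5 it measured 9.64 and 10.06 on the F344 hyperoxia arrays and 10.20 and 10.72 in F344 room air. In SD the same day gave 9.80 and 9.75 under hyperoxia and 10.44 and 10.25 in room air. All 4 hyperoxia arrays of day 5 were below all 4 room air arrays. The difference averaged over strains was -0.59 ± 0.12, which did not pass the test (limma, adjusted p = 0.0832), and it was nearly equal in F344 (-0.61) and SD (-0.57). It passed without replicate 1 of F344 room air (day 5), at -0.72 (limma, adjusted p = 0.0161). On day 6 the F344 hyperoxia arrays stood at 11.01 and 10.79 against 10.54 and 10.73 in room air. The SD arrays stood at 10.81 and 10.73 against 10.55 and 10.26. Within each strain the hyperoxia arrays of day 6 were above the room air arrays, by a mean of 0.31 ± 0.12 (limma, adjusted p = 0.132).

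Gapdh makes the high-energy phosphate that the next step turns into ATP, and its transcript is often used as a constant reference. Its whole range over the 16 arrays was 0.36 log2 units. The day 5 arrays measured 12.64 and 12.66 in F344 hyperoxia, 12.72 and 12.89 in F344 room air, 12.63 and 12.64 in SD hyperoxia, and 12.81 and 12.74 in SD room air. The hyperoxia arrays thus lay below the room air arrays without overlap in both strains, but by only -0.15 ± 0.08 (limma, adjusted p = 0.476). On day 6 the values were 12.89 and 12.73 against 12.87 and 12.90 in F344, and 12.99 and 12.95 against 12.92 and 12.84 in SD. The day 6 groups overlapped in F344 and did not in SD.

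Pgk1 transfers that phosphate to ADP, the first ATP-yielding step. In F344 on day 5 it measured 10.14 and 9.95 under hyperoxia against 11.02 and 10.77 in room air, the lowest group of the 8 for this gene. It fell by 0.85 ± 0.14 log2 units, 1.80-fold (limma, adjusted p = 0.0217). In SD the day 5 arrays measured 10.82 and 10.49 against 11.02 and 10.96, a difference of -0.33 ± 0.14 that did not pass (limma, adjusted p = 0.510). Over both strains Pgk1 fell by 0.59 ± 0.10, 1.51-fold (limma, adjusted p = 0.0141). The difference between the strains' day 5 effects, 0.52 ± 0.20, did not pass (limma, adjusted p = 0.792). On day 6 the F344 arrays measured 10.88 and 10.59 under hyperoxia against 10.66 and 10.54, which overlap. The SD arrays measured 11.33 and 11.29 against 11.05 and 11.10, which do not. The F344 day 5 call was lost when either F344 hyperoxia array of day 5, replicate 1 of F344 room air (day 5) or either SD hyperoxia array of day 6 was left out, with values between -0.95 and -0.72 and adjusted p up to 0.458. It was also lost in a fit on these 4 arrays alone. The call over both strains was lost without replicate 2 of F344 hyperoxia (day 5), replicate 1 of F344 room air (day 5), replicate 2 of SD hyperoxia (day 5) or either SD room air array of day 5, with values between -0.61 and -0.51.

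Pgam1 moves the phosphate within phosphoglycerate. The probe set for it was dim: its values lay between 5.33 and 6.02 over the 16 arrays, close to the array medians. On day 5 it measured 5.54 and 5.37 in F344 hyperoxia, 5.43 and 5.49 in F344 room air, 5.72 and 5.33 in SD hyperoxia, and 5.45 and 5.79 in SD room air. Hyperoxia and room air overlapped in both strains. The day 6 values were 5.77 and 5.73 against 5.60 and 5.55 in F344, and 5.62 and 5.86 against 5.89 and 6.02 in SD, so that the strains differed in the side on which hyperoxia lay. None of its oxygen effects passed the test, and the largest was -0.21 ± 0.15 in SD on day 6 (limma, adjusted p = 0.478).

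The enolases make phosphoenolpyruvate. Eno1 is the general form, and Eno2 is the form of neurons. Eno1 measured 12.12 and 12.05 in F344 hyperoxia on day 5 against 12.26 and 12.45 in room air, and 12.24 and 12.24 in SD hyperoxia against 12.39 and 12.36. The hyperoxia arrays of day 5 were all lower, by a mean of -0.21 ± 0.10 (limma, adjusted p = 0.459). On day 6 Eno1 measured 12.35 and 11.85 in F344 hyperoxia against 12.42 and 12.47, and 12.45 and 12.43 in SD hyperoxia against 12.38 and 12.17. The SD arrays were above room air and the F344 arrays below it.

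Eno2 measured 9.63 and 9.54 in F344 hyperoxia on day 5 against 9.45 and 9.81 in room air, and 9.66 and 9.87 in SD hyperoxia against 9.99 and 9.94. The groups overlapped in F344 and not in SD. On day 6 the values were 10.26 and 9.60 against 10.12 and 10.21 in F344, and 10.24 and 10.27 against 10.28 and 10.21 in SD, with overlap in both. Both enolases were low on 1 array, replicate 2 of F344 hyperoxia (day 6). With the other array of that group left out, which leaves replicate 2 as the only one, Eno1 was called lower at -0.59 (limma, adjusted p = 0.0136) and Eno2 at -0.57 (adjusted p = 0.0262). Without replicate 2 the values were -0.09 and 0.10. With both arrays in the fit they were -0.34 ± 0.14 and -0.24 ± 0.17 and did not pass (limma, adjusted p = 0.221 and 0.511). Of 10 neuron genes set beside Eno2, 0 were called on day 5, and Map2 alone was called, lower, on day 6, over both strains and in SD but not in F344. Their summed linear level on day 6 ran from 6530 to 7718 in F344 hyperoxia and from 7587 to 7636 in room air, which overlap. In SD it ran from 6459 to 6691 and from 7229 to 8147, which do not. Their part in the Eno2 values was not tested.

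Pkm makes pyruvate and ATP. On day 5 it measured 11.81 and 11.64 in F344 hyperoxia against 11.87 and 12.03, and 11.60 and 11.69 in SD hyperoxia against 11.94 and 11.72. The hyperoxia arrays were lower without overlap in each strain, by a mean of -0.21 ± 0.08 (limma, adjusted p = 0.375). On day 6 it measured 12.11 and 11.96 in F344 hyperoxia against 12.23 and 12.32, and 12.15 and 12.17 in SD hyperoxia against 11.88 and 11.88. The F344 hyperoxia arrays were both below room air (-0.24 ± 0.12) and the SD arrays both above (0.28 ± 0.12). The difference between those effects was 0.51 ± 0.17 and did not pass (limma, adjusted p = 0.220).

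Ldha encodes the lactate dehydrogenase subunit that favours lactate formation and is a known HIF target. On day 5 it measured 12.15 and 11.94 in F344 hyperoxia against 12.57 and 12.54 in room air, and 12.33 and 12.20 in SD hyperoxia against 12.58 and 12.41. The 4 hyperoxia arrays lay below the 4 room air arrays. The difference was -0.51 ± 0.12 in F344 and -0.23 ± 0.12 in SD, with a mean of -0.37 ± 0.08 that did not pass (limma, adjusted p = 0.111). Both Ldha and Tpi1 passed in this comparison with an eBayes trend or with array weights. On day 6 Ldha measured 12.63 and 12.49 in F344 hyperoxia against 12.54 and 12.55, and 12.81 and 12.72 in SD hyperoxia against 12.49 and 12.62. The F344 groups overlapped, and the SD hyperoxia arrays were the highest of all 16.

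Ldhb encodes the subunit typical of heart, which favours the return of lactate to pyruvate. On day 5 it measured 7.82 and 8.13 in F344 hyperoxia against 7.57 and 7.84 in room air, and 7.60 and 7.43 in SD hyperoxia against 7.24 and 7.25. The means were higher after hyperoxia in both strains, with overlap in F344, by 0.27 ± 0.11 over both (limma, adjusted p = 0.376). On day 6 Ldhb measured 8.12 and 7.73 in F344 hyperoxia against 7.76 and 7.86, which overlap. The SD arrays measured 8.04 and 7.80 against 7.13 and 7.34, which do not. In SD on day 6 Ldhb rose by 0.69 ± 0.15, 1.61-fold (limma, adjusted p = 0.0286), and over both strains by 0.40 ± 0.11, 1.32-fold (limma, adjusted p = 0.0406). The SD call was lost without either SD hyperoxia array of day 6 or without replicate 1 of SD room air (day 6), with values between 0.57 and 0.81. The call over both strains was kept in 7 of 16 fits that left out 1 array. It was lost without any 1 of the 4 SD arrays of day 5, replicate 1 of F344 hyperoxia (day 6), either F344 room air array of day 6, replicate 1 of SD hyperoxia (day 6) or replicate 1 of SD room air (day 6), with values between 0.30 and 0.43. It was also lost with the replicate number as a block, with every probe set tested, with an eBayes trend, with array weights and in a fit on the compared groups only. The difference between the strains' day 6 effects, 0.57 ± 0.22, did not pass (limma, adjusted p = 0.302).

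Set side by side, the lactate dehydrogenase genes shifted relative to each other, toward Ldhb, in 3 of the 4 comparisons of hyperoxia with room air. In SD on day 6 both had positive oxygen effects, 0.69 for Ldhb and 0.20 for Ldha. The difference Ldhb minus Ldha, whose level has no meaning across probe sets but whose change does, measured -4.33 and -3.81 in F344 hyperoxia on day 5 against -5.00 and -4.71 in room air. In SD on day 5 it measured -4.72 and -4.77 against -5.33 and -5.16. In SD on day 6 it measured -4.77 and -4.91 against -5.37 and -5.28. The shift toward Ldhb was 0.79, 0.50 and 0.49 log2 units in these comparisons, with no overlap of arrays, and 0.10 in F344 on day 6, where -4.51 and -4.76 overlapped -4.78 and -4.69. This difference was chosen after the values were seen and was given no test. No share over other gene pairs is given here, so the lack of overlap has no background beside it.

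**Figure D2:**
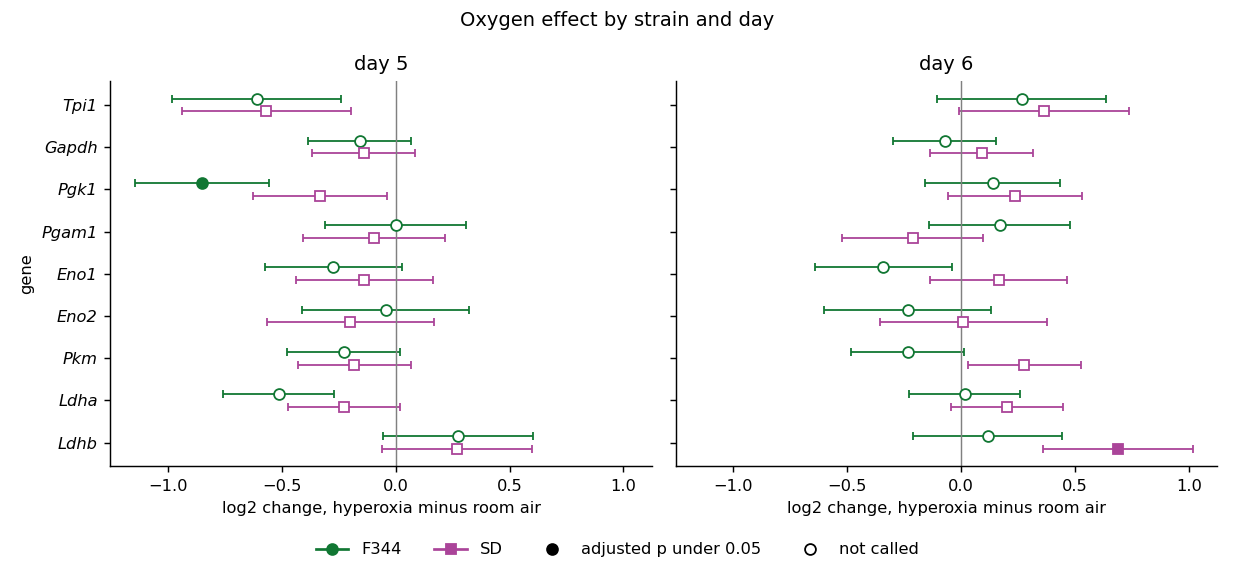
Oxygen effect (log2 change, cyclic hyperoxia minus room air, x axis) for each member (y axis) by strain, on day 5 (left) and day 6 (right). Points are limma estimates from 2 arrays a group, bars are 95% confidence intervals, and filled points passed an adjusted p of 0.05: Pgk1 in F344 on day 5 and Ldhb in SD on day 6.

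Counted over the members, the oxygen effect on day 5 gave 1 of 9 called lower in F344, where 0.126% of all genes were called lower, and 1 of 9 over both strains, where 0.209% were. In SD 0 of 9 were called in limma, with 0.0628% of all genes called lower. An unadjusted p under 0.05 was found there for 2 members and for 1296 of 14324 genes. The median of the members was -0.23 in F344 and -0.18 in SD, beside medians of 0.0059 and 0.0055 over all genes. The hyperoxia arrays lay wholly below room air for 6 members in F344, against 20.3% of all genes, and for 7 members in SD, against 21.5%. Wholly below the room air arrays of their own strain in both strains at once were 6 members (Tpi1, Gapdh, Pgk1, Eno1, Pkm and Ldha), against 6.56% of all genes.

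On day 6 the counts were 0 of 9 called in F344 in limma, where 1.19% of all genes were called either way. An unadjusted p under 0.05 was found there for 1 member and for 2522 of 14324 genes. In SD 1 of 9 was called higher, where 2.23% of all genes were. Over both strains 1 of 9 was called higher, where 4.01% of genes were called higher and 2.73% lower. Hyperoxia arrays lay wholly above room air for 2 members in F344 (background 20.7%), for 7 in SD (25.3%) and for Tpi1 alone in both strains (8.49%). The members' median was 0.01 in F344 and 0.20 in SD, beside -0.0041 and -0.0064 over all genes.

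Between the days, 4 members rose in the groups given cyclic hyperoxia, where age and oxygen turn cannot be told apart. Under cyclic hyperoxia, over both strains, Tpi1 rose from day 5 to day 6 by 1.02 ± 0.12, 2.03-fold (limma, adjusted p = 0.000107). Pgk1 rose by 0.67 ± 0.10, 1.59-fold (adjusted p = 0.000617), Ldha by 0.51 ± 0.08, 1.42-fold (adjusted p = 0.00144), and Pkm by 0.41 ± 0.08, 1.33-fold (adjusted p = 0.00768). All 9 members had positive values, and 4 of 9 were called higher, where 2.1% of all genes were. These 4 calls held in 16 of 16 fits that left out 1 array and in the other alternatives tried. The strains were close to each other: Tpi1 changed by 1.05 in F344 and 0.99 in SD, Pgk1 by 0.69 and 0.66, and Ldha by 0.52 and 0.50, while Pkm gave 0.31 and 0.51. Eno2 gave 0.42 ± 0.12 (adjusted p = 0.0644) and Gapdh 0.25 ± 0.08 (adjusted p = 0.0747), both short of the threshold. Both passed with median centring, which gave 6 of 9, while Eno2 passed with quantile normalization or array weights and Gapdh with an eBayes trend, each of which gave 5. The members' median was 0.41, beside 0.0050 over all genes. Marker genes of retinal cell types moved over the same days. Of 10 rod and cone genes, 7 were called higher under hyperoxia (median 0.48) and 2 in room air (median 0.37), and 9 of the 10 stayed above the lowest array median on all arrays. Their summed linear level under hyperoxia ran from 9598 to 10430 on day 5 and from 10126 to 12147 on day 6 in F344, and from 11567 to 11678 and then 13667 to 14989 in SD. Of 6 progenitor and cell cycle genes, 5 were called lower under hyperoxia (median -0.77) and 3 in room air (median -0.65). Among all 14324 genes, 387 were called lower under hyperoxia, and 185 higher and 245 lower in room air. Their sum under hyperoxia went from 2906 to 3542 on day 5 to between 1615 and 1659 on day 6 in F344, and from 2944 to 3196 to between 1451 and 1663 in SD. The part of these cell types in the members' changes was not tested.

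In room air 0 of 9 members were called between the days in limma, where 3% of all genes were called either way. An unadjusted p under 0.05 was found there for 3 members and for 2180 of 14324 genes. Eno2 came closest, at 0.41 ± 0.12 (adjusted p = 0.0891), nearly its value under hyperoxia, and it was called when replicate 2 of F344 room air (day 5) or either F344 hyperoxia array of day 6 was left out. Tpi1 gave 0.11 ± 0.12, Pgk1 -0.11 ± 0.10, Ldha 0.03 ± 0.08 and Pkm 0.19 ± 0.08 in room air. The test of the difference between the oxygen effects of the 2 days is the same as the test of hyperoxia against room air in this change. It passed for Pgk1 over both strains, at 0.78 ± 0.14 (limma, adjusted p = 0.0293), where 0.182% of all genes were called higher. It passed for Pgk1 in F344, at 0.99 ± 0.20 (adjusted p = 0.0335), where 0.272% were. In SD 0 of 9 were called in limma, where 0.112% of all genes were called higher. An unadjusted p under 0.05 was found there for 4 members and for 541 of 14324 genes. Tpi1 gave 0.90 ± 0.17 over both strains (adjusted p = 0.0557) and Ldha 0.48 ± 0.12 (adjusted p = 0.175). Pkm gave 0.23 ± 0.12 over both strains (limma, adjusted p = 0.639). Its rise in F344 was 0.32 in room air and 0.31 under hyperoxia, and in SD 0.05 and 0.51. Both Pgk1 calls were lost when every probe set was tested, and the F344 call also with array weights and in a fit on the compared groups only. The Pgk1 call over both strains was kept in 6 of 16 fits without 1 array and the F344 call in 9 of 16. The F344 call was lost without either F344 hyperoxia array of day 5, replicate 1 of F344 room air (day 5), either F344 room air array of day 6 or either SD hyperoxia array of day 6. The call over both strains was lost without replicate 2 of F344 hyperoxia (day 5), replicate 1 of F344 room air (day 5), replicate 2 of SD hyperoxia (day 5), either SD room air array of day 5, either F344 room air array of day 6, either SD hyperoxia array of day 6 or replicate 1 of SD room air (day 6). Tpi1 passed without replicate 2 of F344 hyperoxia (day 5), replicate 1 of F344 room air (day 5), replicate 2 of F344 hyperoxia (day 6) or replicate 1 of SD room air (day 6). The interaction values kept their sign in all 16 fits, between 0.70 and 0.86 for Pgk1 over both strains and between 0.77 and 1.04 for Tpi1.

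**Figure D3:**
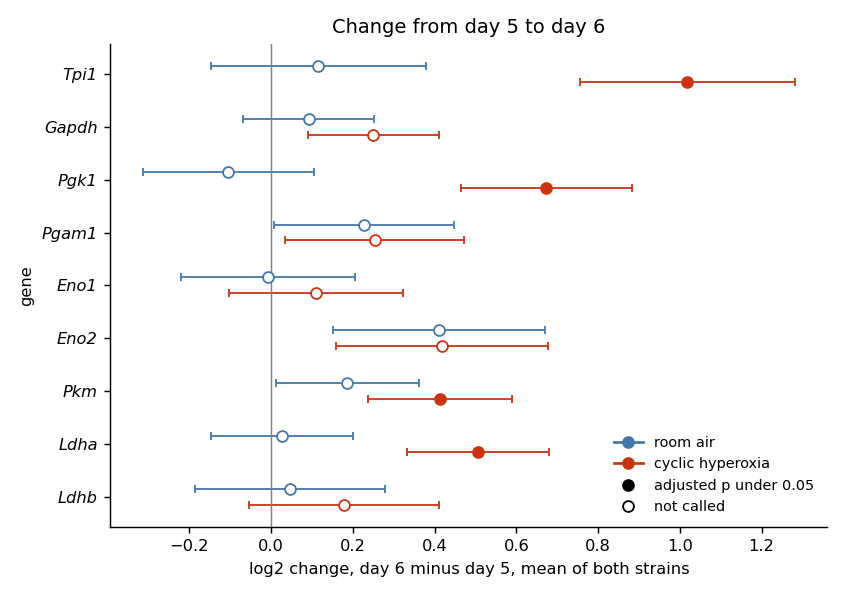
Change from day 5 to day 6 (log2, mean of both strains, x axis) for each member (y axis), in room air (blue) and under cyclic hyperoxia (red). Points are limma estimates, bars are 95% confidence intervals, and filled points passed an adjusted p of 0.05. The 4 filled points are all hyperoxia, and Eno2 lies at about the same place in both.

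Between strains, Pgk1 and Ldhb were called. Under hyperoxia, over both days, Pgk1 was higher in SD than in F344 by 0.59 ± 0.10, 1.51-fold (limma, adjusted p = 0.00183). It was the only 1 of 9 members called higher, where 5.18% of all genes were. In room air Pgk1 gave 0.29 ± 0.10 in the same direction (adjusted p = 0.0838). Ldhb was lower in SD in room air by -0.51 ± 0.11, 1.43-fold (adjusted p = 0.00903), the only member called there, where 9.35% of all genes were called either way. Under hyperoxia its strain difference was -0.23 ± 0.11 (adjusted p = 0.220). Pkm gave -0.26 ± 0.08 in room air (adjusted p = 0.0633) and 0.02 ± 0.08 under hyperoxia. The Pgk1 and Ldhb calls held in 16 of 16 fits without 1 array. Without replicate 1 of F344 hyperoxia (day 6), Eno1 and Eno2 also passed between strains under hyperoxia. Without either F344 hyperoxia array of day 6, Pgk1 and Pkm also passed in room air, as did Pkm without replicate 1 of SD room air (day 5). The difference between strains in the oxygen effect was called for 0 of 9 members on day 5 in limma, where 0% of all genes were called either way although 879 genes, 1 of them a member, had an unadjusted p under 0.05. On day 6 it was 0 of 9, where 0.0559% of genes were called. An unadjusted p under 0.05 was found for 3 members and for 1641 of 14324 genes in that comparison. Eno1 passed there without replicate 1 of F344 hyperoxia (day 6). Rod and cone genes also differed between strains: 6 of 10 were called higher in SD under hyperoxia (median 0.39) and 5 of 10 in room air (median 0.38). Their summed level lay between 9598 and 12147 on the 8 F344 arrays and between 11567 and 14989 on the 8 SD arrays. In room air 3 of 10 neuron genes were called higher in SD and 1 lower, and 2 of 4 bipolar cell genes higher and 1 lower. Under hyperoxia those lists gave 1 called lower each, where 541 of 14324 genes were called lower. The neuron genes summed in room air to between 6415 and 7636 in F344 and between 6870 and 8147 in SD, and the bipolar genes to between 1021 and 1174 and between 1075 and 1999. The part of these cell types in the strain differences was not tested.

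The order of the 8 group means within a gene showed the same break for several members. For Tpi1 the day 5 hyperoxia groups, at 9.85 in F344 and 9.78 in SD, stood below the other 6 groups, whose neighbours overlapped from 10.35 up to 10.90. Gapdh had the same 2 groups last, at 12.65 and 12.64, below SD room air of day 5 at 12.78. Ldha had them last as well, at 12.04 in F344 and 12.26 in SD, and these did not overlap each other or the next group at 12.49. For Pgk1 only the F344 group stood apart at the low end, at 10.04, and SD hyperoxia of day 6 at the high end, at 11.31. For Ldhb the low end was SD room air of both days, at 7.23 and 7.25, which overlap each other and not the next group at 7.52.

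Gapdh, Eno1, Pkm and Ldha are each read by more than 1 probe set, which may share targets or hit processed copies and are not replicates. On day 5, averaged over strains, 16 of 16 Gapdh sets, 3 of 3 Eno1 sets, 3 of 3 Pkm sets and 2 of 2 Ldha sets were lower after hyperoxia. The Gapdh sets ran from -0.28 to -0.07. The dimmer Ldha set, with a mean of 11.07, gave -0.49, and the brighter set, with a mean of 12.47, gave -0.37. In a fit over all probe sets, the change between days under hyperoxia was called for 3 of 3 Pkm sets, 2 of 2 Ldha sets and 1 of 16 Gapdh sets. The share of all probe sets called in that fit is not given here. In the main fit 2.1% of all genes were called higher in this change.

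**Figure D4:**
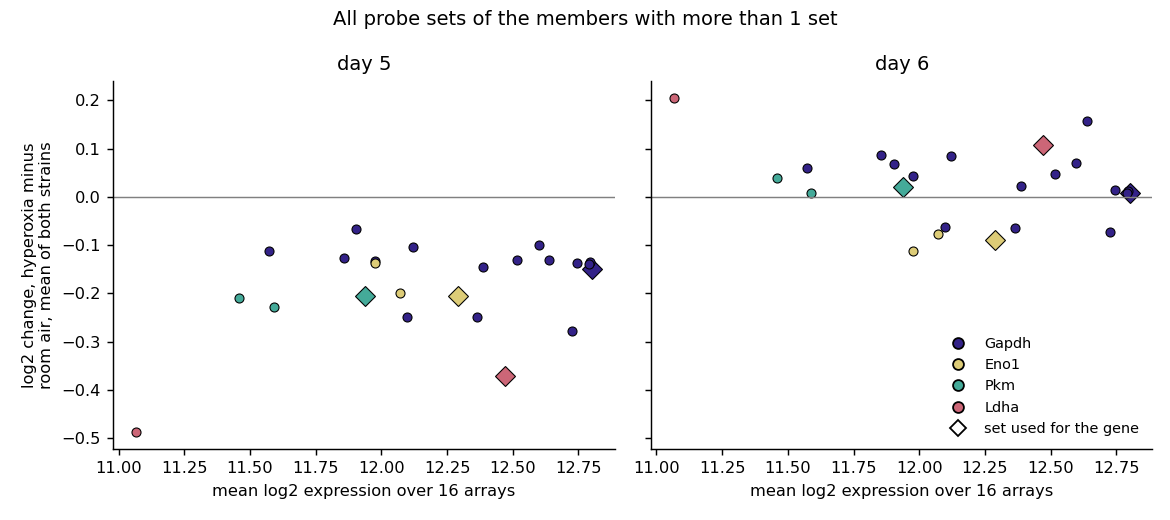
Oxygen effect averaged over strains (log2 change, y axis) against mean log2 expression over 16 arrays (x axis) for every probe set of Gapdh, Eno1, Pkm and Ldha, on day 5 (left) and day 6 (right). Diamonds are the sets used for the genes, and all points of day 5 lie below 0.

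Several genes of the steps above the members also fell on day 5. Of 12 upper glycolysis genes listed, 10 were measured, with a median of -0.52 over both strains. Of these 10, 5 were called lower, where 0.209% of all genes were. They were Hk2, which traps glucose in the cell (-1.40 ± 0.27, adjusted p = 0.0452), Gpi (-0.60 ± 0.08, adjusted p = 0.00142), the phosphofructokinase genes Pfkl (-0.55 ± 0.10, adjusted p = 0.0280) and Pfkp (-0.73 ± 0.12, adjusted p = 0.0112), and Pfkfb3, which makes the activator of phosphofructokinase (-1.07 ± 0.10, adjusted p = 4.31e-05). On day 6 Pfkl alone was called, higher (0.38 ± 0.10, limma, adjusted p = 0.0340), where 4.01% of all genes were called higher. From day 5 to day 6, 7 of the 10 were called higher under hyperoxia and 0 in room air. Of all genes, 2.1% were called higher under hyperoxia and 3% either way in room air. The 10 other forms of the lower enzymes, such as Pgk2, Eno3 and Ldhc, gave 0 calls on either day, with medians of 0.05 and 0.02.

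Over both strains, 0.209% of all genes were called lower on day 5, and 4.01% higher and 2.73% lower on day 6. Of 22 genes that handle lactate and pyruvate, 2 were called lower on day 5 and the same 2 higher on day 6. Slc16a3, a lactate exporter, gave -1.50 ± 0.16 (limma, adjusted p = 0.000196) and then 0.58 ± 0.16 (adjusted p = 0.0424). Pdk1, a mitochondrial kinase that inhibits pyruvate dehydrogenase, gave -0.86 ± 0.08 (adjusted p = 4.31e-05) and then 0.39 ± 0.08 (adjusted p = 0.0128). Of 28 HIF targets outside glycolysis, 8 were called lower on day 5, among them Egln3 (-1.28 ± 0.10), Ak4 (-1.18 ± 0.10), Vegfa (-0.92 ± 0.09) and Bnip3 (-0.86 ± 0.09). On day 6, 9 were called higher and Cited2 lower. Of 9 measured side branch genes, 0 were called on day 5, and Taldo1 (0.47 ± 0.11) and Psph (0.50 ± 0.08) were called higher on day 6. These lists were drawn up with earlier results of these data known, so their direction is no independent evidence. Among marker lists, 1 of 5 measured endothelium genes (Tek) was called lower over both strains on day 5, and 2 of 5 (Tek and Tie1) on day 6. The summed linear level of these 5 genes ran on day 5 from 127 to 137 in hyperoxia and from 144 to 194 in room air, and 0 of the 5 stayed above the lowest array median on all 16 arrays. On day 6, over both strains, Nrl and Opn1sw of 10 rod and cone genes and Aif1 and C1qa of 6 microglia genes were also called higher, and Grm6 of 4 bipolar cell genes lower. In F344 on day 5, Hbb of 5 measured erythroid genes was called lower. The erythroid sum ran there from 157 to 160 in hyperoxia and from 227 to 301 in room air. In SD on day 5 it ran from 209 to 243 and from 182 to 222. Of the 5 erythroid genes, 1 stayed above the lowest array median on all arrays. The part of these cell types in the results was not tested.

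**Figure D5:**
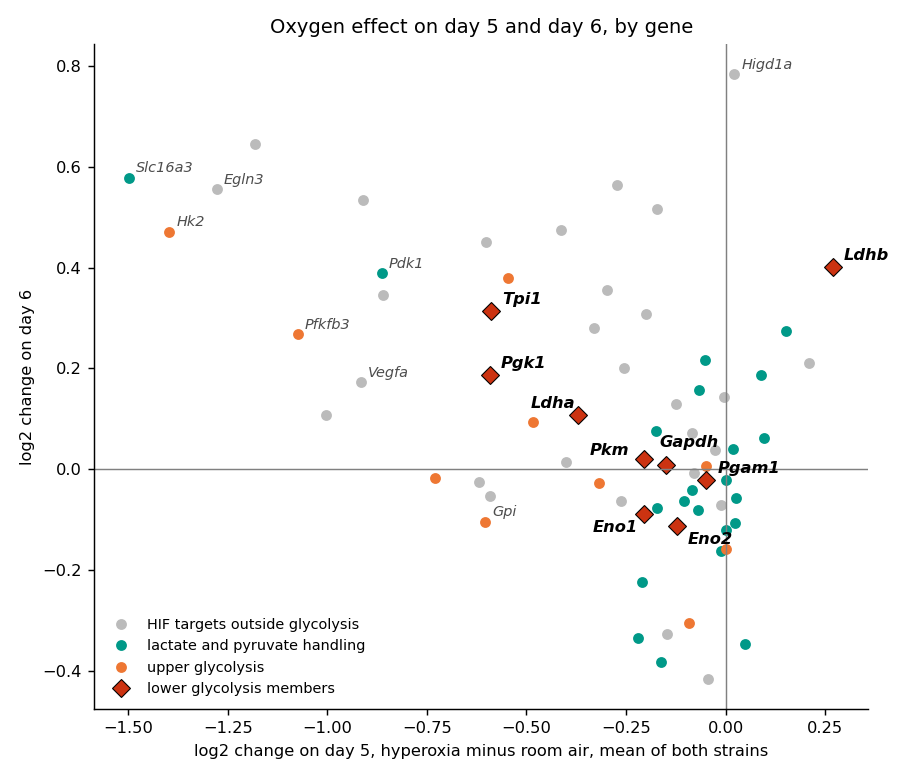
Oxygen effect averaged over strains on day 5 (log2 change, x axis) and day 6 (log2 change, y axis) for the 9 members (red diamonds), 10 upper glycolysis genes, 22 lactate and pyruvate genes and 28 HIF targets outside glycolysis. Tpi1, Pgk1 and Ldha lie left of 0 on day 5 and above 0 on day 6, as do Hk2, Slc16a3 and Egln3 farther out, and Ldhb lies to the right.

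Across the 8 group means, taken as a description since the groups share conditions and array scale, Gapdh followed the mean of the other members most closely (r = 0.966), then Ldha (0.940), Tpi1 (0.850) and Pkm (0.814). Pgk1 (0.628), Pgam1 (0.532) and Eno1 (0.530) followed it less, and Ldhb did not (-0.087). Among 4574 genes outside the members that passed a floor on level and a range of at least 0.5 log2 units, the 6 whose profile was most like the members' mean were Slc2a3 (r = 0.964), Egln3 (0.949), P4ha2 (0.942), Igfbp7 (0.942), Acaa1b (0.929) and Mfrp (0.926).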

How the data were processed

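Retinal RNA of 8 groups (2 strains, cyclic hyperoxia or room air, day 5 or 6), 2 pooled arrays each, was measured on Affymetrix gene arrays. The authors deposited log2 expression values of 27342 probe sets, made with Partek 6.4 and RMA per the submitters' processing notes. RMA equalises arrays, so a change common to most transcripts would be removed. The genome build behind the probe sets is not given in the sources used here. Of the sets, 15097 had 1 gene symbol in the platform annotation, 323 several and 11922 were not listed. Through Entrez identifiers 15067 were matched to the RefSeq table of GRCr8 and 30 kept their annotated symbol. For the 499 genes with several sets, the brightest by mean was used, which left 14324 genes. A set that names Tpi1 together with another symbol was not used. No array was left out, and 0 per-sample columns went unused.

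The 16 arrays were fitted together in limma 3.58.1 (R 4.3.3), with a mean for each group (8 residual and 7.41 prior degrees of freedom). In each of 15 contrasts, p-values of all genes were Benjamini-Hochberg adjusted, and calls were made at 0.05. The script was tested on simulated data. Linear folds are ratios of geometric means. Copies of Gapdh and of other members can share probes, so their values are uncertain to that extent.

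All 9 members are named. Other genes come from 5 pathway lists, by their calls in the oxygen effect over both strains with at most the 4 smallest p of a list, except that all 5 called upper glycolysis genes are named, Taldo1, Psph and Cited2 are named as calls of day 6, and the examples of other enzyme forms were picked after their values were seen. The 13 marker lists were summed as linear values. Members and lists were chosen with earlier results of these data known. Likeness was ranked among genes above the lowest array median whose group means span at least 0.5 log2 units. Alternatives were the replicate block, a filter on dim genes, every probe set, median centring, quantile normalization, an eBayes trend, array weights, the compared groups only, other probe sets and leaving out each array.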

Additional observations from a re-analysis of the deposited data

Results flagged for a closer look

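Pgk1 differed between days in its oxygen effect. The test of that difference (day 6 minus day 5) gave 0.99 ± 0.20 log2 units in F344 (limma, adjusted p = 0.0335) and 0.78 ± 0.14 over both strains (adjusted p = 0.0293). In F344 the oxygen effect was -0.85 on day 5 and 0.14 on day 6. In SD the difference between days was 0.57 ± 0.20 and did not pass (adjusted p = 1.00). Groups of 2 arrays were too small for a search for single arrays that stand apart.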

How the results depend on the processing

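Each of the 15 comparisons was counted again under 24 alternatives (23 for the day difference of the oxygen effect over both strains, which uses all 8 groups, so that a fit on the compared groups only is the same fit). No alternative turned a called value around. In 28 pairs of groups the deviations of same-numbered arrays correlated between -0.287 and 0.519, with a median of -0.023 and values over 0.1 in 8. These values do not settle whether arrays of the same number share a batch, and the main fit held no replicate block. With the replicate block, the members called for the day 6 oxygen effect over both strains went from 1 to 0 and those for the strain difference in room air from 1 to 2 (Pgk1 and Ldhb), and the other counts were as before. Testing every probe set gave 0 for that day 6 effect and 0 for the day difference of the oxygen effect in F344 and over both strains. An eBayes trend and array weights gave 3 for day 5 over both strains (Tpi1, Pgk1 and Ldha), 0 for day 6 over both strains and 2 for the day difference over both strains (Tpi1 and Pgk1). The trend also gave 2 for strain in room air, and array weights gave 0 for the day difference in F344 and 1 (Eno2) for the day difference in room air, as did quantile normalization. The filter on dim genes and median centring gave 2 for the day difference over both strains, and median centring gave 2 for strain in room air. For the day difference under hyperoxia, median centring gave 6 (Gapdh and Eno2 added), and quantile normalization, the trend and array weights gave 5. With the compared groups only, F344 on day 5, day 6 over both strains and the day difference in F344 gave 0. The cause was not tested in any of these.

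Leaving out 1 array at a time gave 0 to 1 members for F344 on day 5, for SD on day 6, for both strains on each day, for the day 6 contrast of the strains' oxygen effects, for the day difference of the oxygen effect in F344 and for the day difference in room air. It gave 0 to 2 for F344 on day 6 and for the day difference of the oxygen effect over both strains, 1 to 3 for each strain difference, 4 to 6 for the day difference under hyperoxia, and 0 for SD on day 5, for the day 5 contrast of them and for the day difference of the effect in SD. Where a group keeps 1 array, that array is assumed to vary like the other groups. Each call of an oxygen effect on day 5 or day 6 was lost without some single array, while the 4 rises under hyperoxia between days, the Pgk1 strain difference under hyperoxia and the Ldhb strain difference in room air were kept in all 16 such fits. Pgam1 lies near the array medians, which limits what its probe set can show.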
